A study of Mus musculus with 9 samples.

Results

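A set of 9 genes of heme synthesis and red cell identity was followed through megakaryocyte maturation: Hba-a1, Alas2, Alad, Urod, Cpox, Ppox, Fech, Tfrc and Hemgn. They were chosen by symbol, as every probe set of the array that the platform annotation paired with exactly 1 of these 9 genes. The rule gave 19 of 22690 probe sets, of which 16 belonged to the main array design and 3 were control probe sets for Tfrc. The samples were primary mouse megakaryocytes grown from bone marrow or fetal liver with thrombopoietin, the cytokine that drives the platelet lineage, and sorted for high surface CD41 and for size by forward scatter. They fell into 4 stages named MKP (progenitors, 2 arrays), MK3 (culture day 3, 2 arrays), MK4 (day 4, 2 arrays) and MK6 (day 6, 3 arrays), each hybridised to 1 Affymetrix MOE430A array. The labels give no strain, age, sex or genotype, do not say which array came from marrow and which from liver, and do not say whether replicates were separate cultures. P-values therefore measure the spread between these arrays, which may be technical. MK6 replicate 1 is the array whose title carries no number, and MK6 replicates 2 and 3 are those titled replicate1 and replicate2.

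Heme is built in a chain of enzymes that begins and ends in mitochondria. Alas2, the erythroid form of the first enzyme, and its relative Alas1, used by other cells, join glycine and succinyl-CoA. Alad, Urod and Cpox act on the intermediates, Ppox makes protoporphyrin, and Fech inserts the iron. Tfrc encodes transferrin receptor 1, through which cells take up transferrin-bound iron, Hba-a1 encodes an adult alpha globin, and Hemgn encodes hemogen, a nuclear protein of blood precursors. Red cells and megakaryocytes arise from a common progenitor and share transcription factors such as Gata1.

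RefSeq windows of the mouse build GRCm38.p6, 250 bases ending at the annotated start, were used for 8 of the 9 genes, without Fech. Windows of the set on a single chromosome were left out before matches were counted, while the windows over all genes kept that chromosome. GATA factors bind the letters GATA preceded by A or T and followed by A or G, and Klf1, an erythroid factor, binds CACCC sequences. A match to one can overlap a match to the other. These windows are printed because Hba-a1, Alas2 and Hemgn are the genes of the set most tied to red cells. Each is written on the strand of its gene, in lower case, with capitals for any of these letters on either strand, so that GGGTG marks CACCC and TTATCT marks AGATAA on the opposite strand.
Hba-a1, chr11:32283422-32283671, plus strand: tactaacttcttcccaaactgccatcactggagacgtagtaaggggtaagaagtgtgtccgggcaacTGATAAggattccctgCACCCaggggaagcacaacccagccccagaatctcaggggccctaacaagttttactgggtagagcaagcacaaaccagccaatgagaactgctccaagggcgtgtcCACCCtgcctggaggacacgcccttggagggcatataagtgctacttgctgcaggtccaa
Alas2, chrX:150547167-150547416, plus strand: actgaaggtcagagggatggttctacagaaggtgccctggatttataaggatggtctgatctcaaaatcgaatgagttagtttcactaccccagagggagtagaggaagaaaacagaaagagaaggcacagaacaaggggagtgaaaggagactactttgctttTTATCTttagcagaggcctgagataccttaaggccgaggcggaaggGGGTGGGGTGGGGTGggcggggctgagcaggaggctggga
Hemgn, chr4:46404184-46404433, minus strand: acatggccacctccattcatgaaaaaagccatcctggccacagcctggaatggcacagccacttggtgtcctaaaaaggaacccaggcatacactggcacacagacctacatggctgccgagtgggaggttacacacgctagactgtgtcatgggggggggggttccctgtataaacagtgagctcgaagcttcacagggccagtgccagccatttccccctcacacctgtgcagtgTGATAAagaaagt
The 8 genes had 10 windows, as Alad and Tfrc each had 2. The GATA letters were present in 4 of the 10 windows (Hba-a1, Alas2, Cpox and Hemgn), against 26.5% of 32851 windows of this length over all genes. CACCC was present in 6 of the 10 windows, against 52% of all windows. In the Alas2 window the AGATAA letters began 86 bases before the start, and in the Hemgn window TGATAA began 13 bases before it. A match is a description of letters only.

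Deposited arrays differed in overall brightness, with trimmed means of 102 to 221 signal units, so each was scaled to 161. Probe sets were tested where at least 2 arrays exceeded 46.7, the 40th percentile of the scaled values. Of 10 megakaryocyte markers with a probe set of their own, all 10 were above this level on 8 arrays and 9 on MK6 replicate 3. Beta-actin 3' to 5' ratios, a sign of RNA integrity, were 1.49, 1.33 and 3.21 on MK6 replicates 1 to 3 and 0.957 to 1.09 on the 6 arrays of earlier stages. Gapdh 3' to 5' ratios were 0.996, 1.13 and 3.27 on MK6 replicates 1 to 3 and 0.805 to 0.970 on those 6 arrays. MK6 replicate 3 stood furthest apart in both ratios. Summed neutrophil and granulocyte markers were 6559 to 28899 signal units in MK6 and 38596 to 47413 in MKP, and summed hepatocyte markers were 3143 to 4041 in MK3 against 598 to 633 in MKP. The part of these in the results was not tested. MK3 replicate 2 stood apart in Alas2 and 2 embryonic globins (Hbb-y and Hba-x), and was highest in the shared alpha globin probe sets. The shared adult beta globin probe set and the embryonic globin Hbb-bh1 were instead highest on MK6 arrays.

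Across the 9 genes, 1 probe set changed between MK6 and MKP: a Tfrc probe set fell to 0.31 of its MKP level (fold on the log2(signal + 15.2) scale). Of the 16 main-design probe sets, 13 from 8 genes passed the filter, and 1 of these 13 passed the test (limma, adjusted p under 0.05 over all 14516 probe sets tested), beside 6.91% of all probe sets tested. By limma, 0 of 13 passed in MK3 against MKP, beside 0.0758% of all. In MK4 against MK3 it was 0, beside 0.0138%, and in MK6 against MK4 it was 0, beside 0.0276%. At an unadjusted p under 0.05 the count was 5 of 13 between MK6 and MKP (25% of all probe sets tested) and 1 between MK3 and MKP (9.65%). It was 1 between MK4 and MK3 (3.46%) and 3 between MK6 and MK4 (11.6%). The 5 included Hba-a1 1453574_at, which passed the filter only through 2 MK6 arrays, where it was high. Its part of that count is not a result. The test over all 4 stages called 1 of 13, beside 2.59% of all. The median log2 difference of the 13 between MK6 and MKP was -0.18, against 0.08 over all probe sets tested. These comparisons share arrays and are not independent. In sorted bulk RNA, fewer cells of a type and less RNA per cell cannot be told apart. The count in MK6 against MKP was 0 without MK6 replicate 3, beside 2.19% of all probe sets tested in that fit. Leaving out MK6 replicates 1 and 3, the arrays of low signal, left 1 array in that stage. Leaving out MK3 replicate 2 left 1 array in MK3. No count of the 9 genes is given for these fits.

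**Figure D1:**
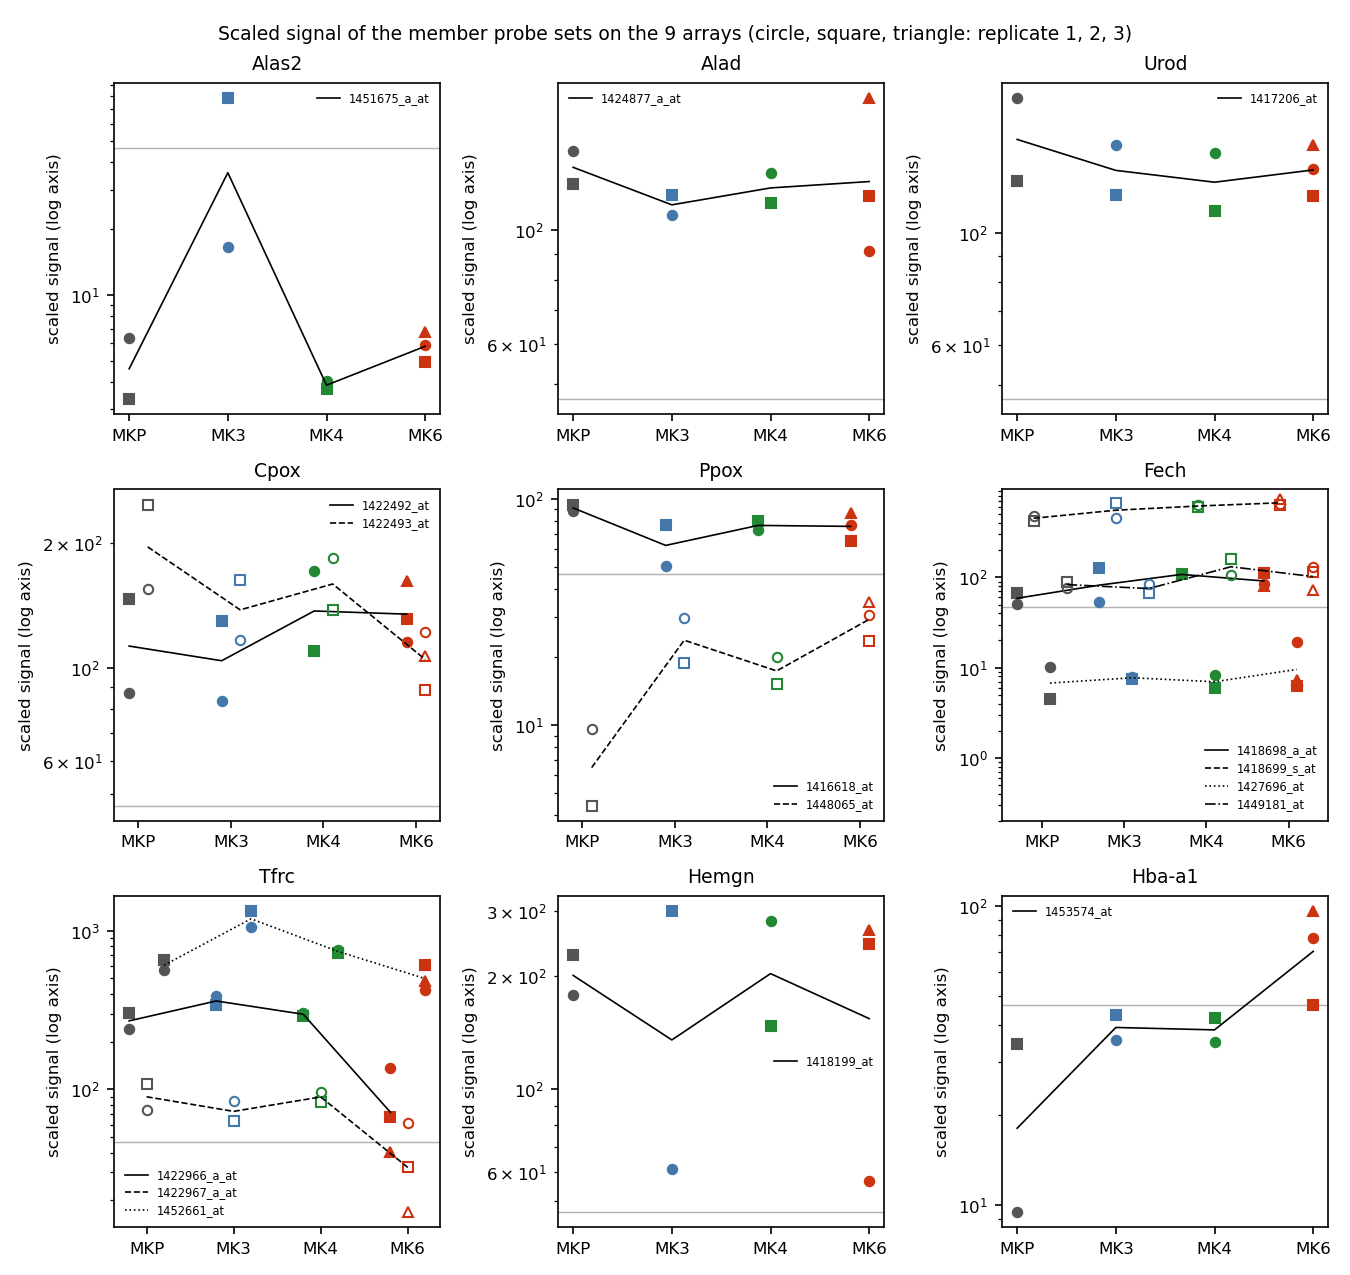
Scaled signal (log axis) of the 16 main-design probe sets of the 9 genes on the 9 arrays, by stage. Points are arrays with a marker shape for each replicate number, filled and open by turns for different probe sets, lines join geometric means of each stage, and the grey line is the filter at 46.7 signal units. Alad and Urod overlapped between MK6 and MKP, the Tfrc probe set 1422966_a_at fell in MK6, and Alas2 was above the grey line on MK3 replicate 2 only.

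Alas2, the enzyme that commits red cell precursors to large-scale heme production, was below the filter on 8 of the 9 arrays. Its probe set 1451675_a_at had 6.32 and 3.33 signal units on the MKP arrays, 16.4 and 78.7 on the MK3 arrays, 4.04 and 3.70 on the MK4 arrays, and 5.92, 4.91 and 6.75 on the MK6 arrays. It was above the filter on MK3 replicate 2 alone, so it was not tested. Its highest value apart from that array was the 16.4 of MK3 replicate 1, and the other stages lay below it.

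The 5 enzymes of the set that act after the first step each had a probe set above the filter on all 9 arrays. Alad, which makes porphobilinogen, had 91.2, 117 and 181 signal units in MK6 and 143 and 123 in MKP. The groups overlapped, and the log2 difference was -0.08 ± 0.29 (SE, 95% interval -0.71 to 0.55, adjusted p = 0.884). Urod, the decarboxylase of uroporphyrinogen, had 134, 118 and 150 signal units in MK6 and 186 and 127 in MKP. The log2 difference was -0.18 ± 0.26 (SE), with an interval of -0.75 to 0.39 and an adjusted p of 0.681 by limma. For Alad and Urod, changes within those intervals could not be told from the spread between arrays.

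Cpox, which makes protoporphyrinogen from coproporphyrinogen, had 2 probe sets, neither of which passed the test. Probe set 1422493_at had 122, 88.5 and 107 signal units in MK6 and 155 and 247 in MKP, so all MK6 arrays were below both MKP arrays. Its log2 difference was -0.81 ± 0.28 (SE, 95% interval -1.43 to -0.19, adjusted p = 0.108). Probe set 1422492_at had 116, 131 and 162 in MK6 and 87.3 and 147 in MKP, and the groups overlapped. Its log2 difference was 0.22 ± 0.31 (SE, adjusted p = 0.677). The difference between the Cpox probe sets was not tested.

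Ppox, which oxidises protoporphyrinogen, had 76.7, 65.0 and 86.3 signal units on probe set 1416618_at in MK6 and 88.0 and 94.3 in MKP. MK6 lay below MKP on every array, but the log2 difference was only -0.23 ± 0.27 (SE, adjusted p = 0.622). The other Ppox probe set, 1448065_at, was below the filter on all 9 arrays, at 4.40 to 34.9.

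Fech, which puts iron into protoporphyrin, had positive differences that did not pass the test. Probe set 1418699_s_at had 653, 635 and 730 signal units in MK6 and 485 and 422 in MKP, so the groups did not overlap. The log2 difference was 0.55 ± 0.23 (SE, 95% interval 0.04 to 1.07, adjusted p = 0.173). Probe set 1418698_a_at had 83.9, 112 and 80.9 in MK6 and 50.8 and 68.0 in MKP, with a log2 difference of 0.53 ± 0.33 (SE). Probe set 1449181_at had 129, 115 and 71.9 in MK6 and 77.1 and 89.8 in MKP, with a log2 difference of 0.26 ± 0.30 (SE). All 3 Fech probe sets that passed the filter had positive differences and none was called, and the fourth, 1427696_at, stayed below the filter, at 4.44 to 19.1.

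Tfrc was the only one of the 9 genes with a called probe set, and its probe sets did not move alike. Probe set 1422966_a_at had 137, 66.8 and 40.4 signal units in MK6 and 239 and 305 in MKP. The MK3 arrays had 385 and 338 and the MK4 arrays 305 and 291, so MK6 alone was low. It fell by 1.69 ± 0.36 on the log2 scale in MK6 against MKP (SE, 95% interval -2.48 to -0.89, limma adjusted p = 0.0228). Against MK4 the log2 difference was -1.82 ± 0.36 (SE), with an adjusted p of 0.0956, which did not pass. The call was lost without MKP replicate 1 (adjusted p = 0.163), without MKP replicate 2 (0.204) and without MK6 replicate 3 (0.06), at log2 differences of -1.86, -1.52 and -1.35. With the beta-actin ratio in the model the log2 difference was -0.98 (adjusted p = 0.484), and over all alternatives run it was between -2.08 and -0.91.

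Probe set 1422967_a_at had 61.7, 32.3 and 16.8 signal units in MK6 and 74.3 and 109 in MKP. The log2 difference was -1.11 ± 0.38 (SE, adjusted p = 0.102). Probe set 1452661_at had 423, 610 and 482 in MK6 and 564 and 651 in MKP. These groups overlapped, and the log2 difference was -0.27 ± 0.24 (SE, adjusted p = 0.496). In MK3 it had 1062 and 1331, above both MKP arrays, at a log2 difference of 0.95 ± 0.26 (SE) against MKP with an adjusted p of 0.202. The ratio of 1452661_at to 1422966_a_at within an array was 2.36 and 2.13 in MKP, 2.76 and 3.94 in MK3, 2.49 and 2.48 in MK4, and 3.08, 9.13 and 11.9 in MK6. MK6 replicates 2 and 3 stood apart in it, while MK6 replicate 1 was below MK3 replicate 2.

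The array also carries control probe sets for mouse Tfrc. The 3' control had 44.9, 44.7 and 28.9 signal units in MK6 and 107 and 140 in MKP. It fell in a fit to which these probe sets were added after the data had been seen, by 1.35 ± 0.29 on the log2 scale (SE, adjusted p = 0.0235). The middle and 5' control probe sets were dim, at 6.21 to 41.0 and 14.7 to 56.6 over the 9 arrays. The 3' to 5' ratio of the Tfrc control was 1.52, 3.04 and 1.26 in MK6 and 2.58 and 4.61 in MKP. On all MK6 arrays both signals of this ratio were below the filter, so it says nothing of RNA integrity there. The 5' signal was below the filter on every array but MK4 replicate 1, so the ratios of the other stages are weak readings as well.

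**Figure D2:**
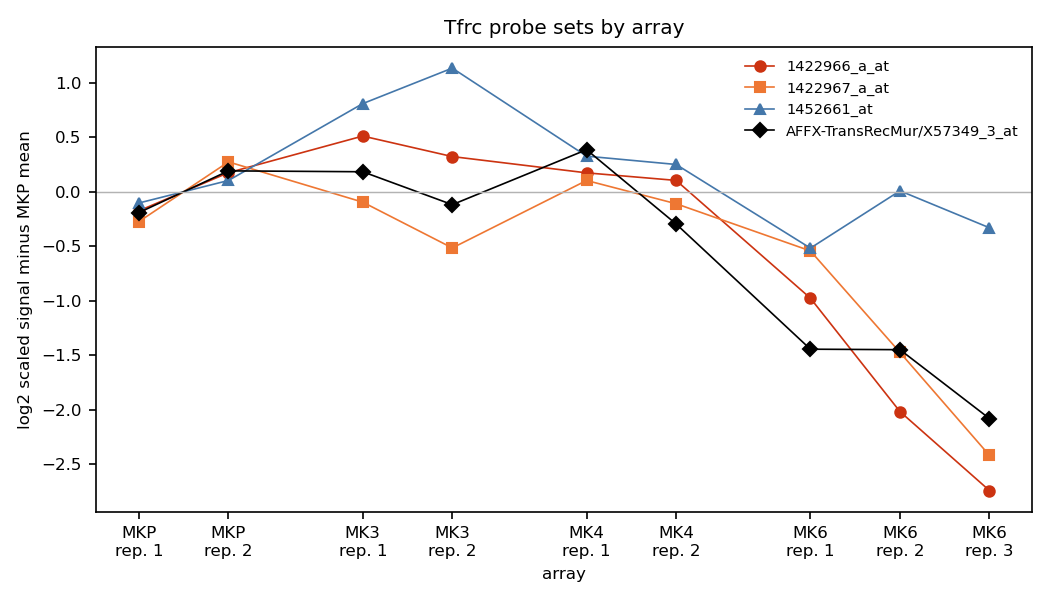
Log2 scaled signal of 4 Tfrc probe sets on each array, relative to the mean of the MKP arrays. On the MK6 arrays 1422966_a_at, 1422967_a_at and the 3' control were below all arrays of the other stages, while 1452661_at, at 423 to 610 signal units, was below its 2 MKP arrays on 2 of the 3 MK6 arrays and peaked in MK3.

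Hemgn had no steady course over the stages. It had 178 and 227 signal units in MKP, 61.1 and 299 in MK3, 281 and 147 in MK4, and 56.5, 244 and 266 in MK6. Within MK3 and within MK6 the lowest replicate was far below the others, so the stages overlapped. The log2 difference between MK6 and MKP was -0.32 ± 0.65 (SE, 95% interval -1.75 to 1.11, adjusted p = 0.783). On the arrays with low Hemgn, MK3 replicate 1 and MK6 replicate 1, summed monocyte and macrophage markers were 30807 and 29949 signal units, against 10863 to 18455 on the other 7 arrays. Their part in the Hemgn level was not tested.

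Hba-a1 and Hba-a2 encode nearly identical alpha chains, and most alpha globin probe sets are shared. The probe set paired with Hba-a1 alone, 1453574_at, had 78.2, 46.5 and 96.1 signal units in MK6 and 9.44 and 34.5 in MKP. It was above the filter on 2 MK6 arrays only, so that it could be tested at all rested on MK6. Its log2 difference was 1.30 ± 0.40 (SE, adjusted p = 0.0759), and 1.63 or 0.81 with the pseudocount at the 10th or 40th percentile, so its size depends on the pseudocount.

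The shared alpha globin probe sets were above the filter on all 9 arrays, and MK3 replicate 2 was the highest in them. Probe set 1417714_x_at had 670 and 487 signal units in MKP, 1169 and 4375 in MK3, 1487 and 524 in MK4, and 1864, 2449 and 1660 in MK6. All MK6 arrays were above both MKP arrays, at a log2 difference of 1.76 ± 0.53 (SE, adjusted p = 0.0715 with shared probe sets added to the fit). The other shared alpha probe sets had log2 differences of 0.60 ± 0.44 (1428361_x_at) and 0.81 ± 0.33 (1452757_s_at, SE), with adjusted p-values of 0.424 and 0.159. A shared probe set for the adult beta globins had 7234, 3668 and 4859 signal units in MK6 and 4041 and 3280 in MKP, and the groups overlapped. In MK3 it had 5141 and 6385, so its highest array was MK6 replicate 1.

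Embryonic globins were measured by 3 genes, and MK3 replicate 2 was the highest array for 2 of them. The Hbb-y probe set 1436823_x_at had 35.2 and 62.1 signal units in MKP, 191 and 1435 in MK3, 196 and 21.9 in MK4, and 84.7, 118 and 166 in MK6. Hba-x had 141 on MK3 replicate 2 and at most 53.7 elsewhere. Hbb-bh1, a beta-like globin of the embryo, was instead highest in MK6, with 54.8, 73.7 and 115 signal units on 1437990_x_at, against 1.34 and 2.44 in MKP. Its probe set 1437810_a_at had 55.7, 47.5 and 84.6 in MK6 and 1.87 and 3.89 in MKP. Both were admitted to the tests by their MK6 arrays: 1437810_a_at was above the filter on these alone, and 1437990_x_at also on MK3 replicate 2. The MKP values were below the pseudocount of 15.2, so no size of change is given and the calls of both are not counted as a result. Summed over the 3 embryonic globins, MK3 replicate 2 had 1636 signal units and the other 8 arrays 48.7 to 329. On that array summed megakaryocyte markers were 22873, against 10153 on MK3 replicate 1, and hepatocyte markers were 3143 against 4041. Their part in the globin values was not tested.

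**Figure D3:**
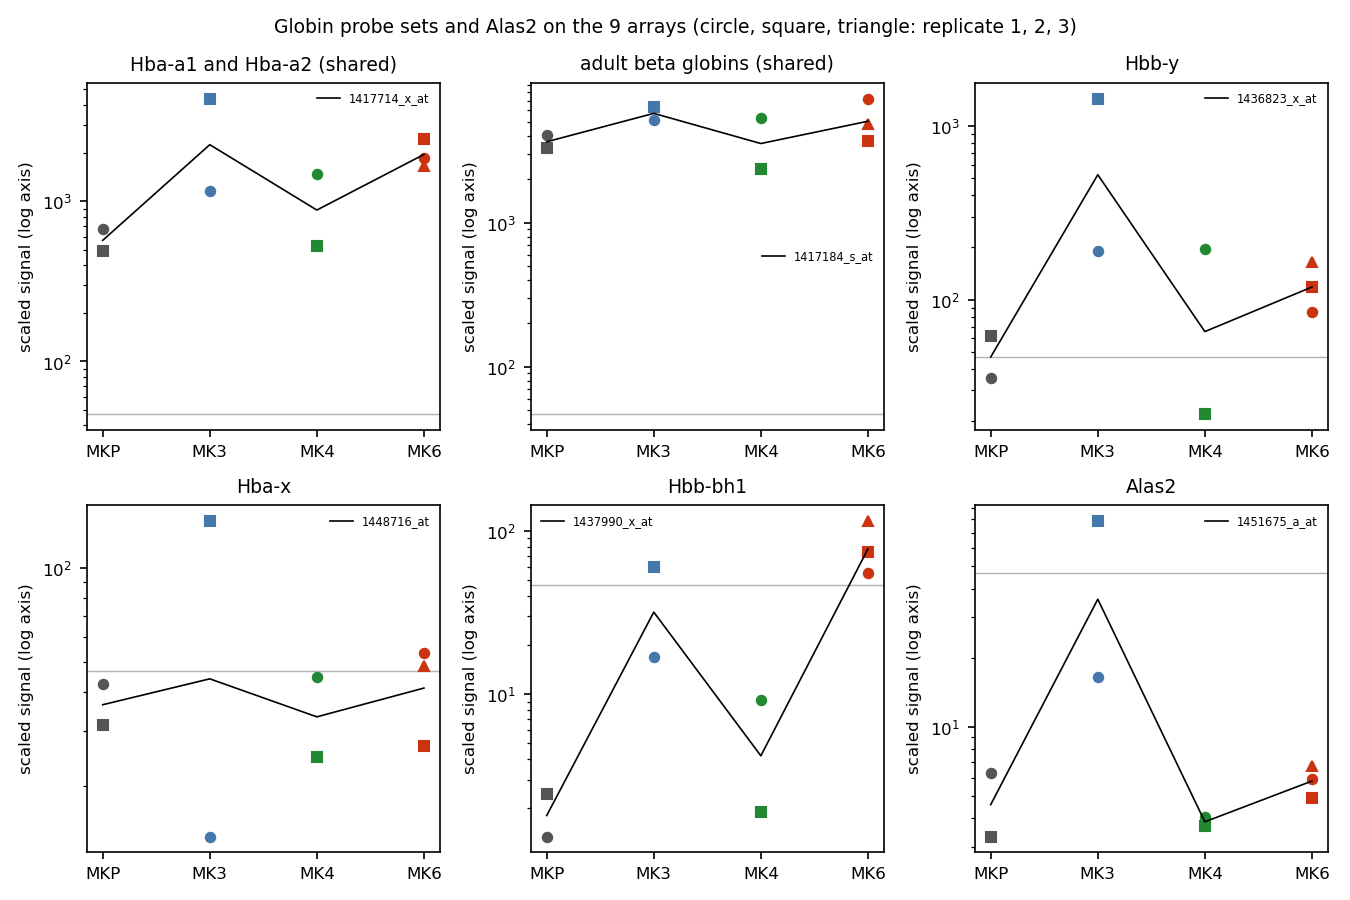
Scaled signal (log axis) of 5 globin probe sets and Alas2 on the 9 arrays, by stage. Points are arrays with a marker shape for each replicate number, lines join stage means, and the grey line is the filter at 46.7. MK3 replicate 2 is the highest array in the Hba-a1 and Hba-a2, Hbb-y, Hba-x and Alas2 panels, at 4375, 1435, 141 and 78.7 signal units.

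Other genes of heme and iron handling were taken from 7 lists. Every MK6 against MKP call in them was lost with beta-actin 3' to 5' ratios in the model, where limma called 0 of 14516 probe sets, and the ratio was higher on all 3 MK6 arrays than on any other. In heme synthesis 10 probe sets of 7 genes passed the filter. In MK6 against MKP 0 rose and 1 fell, beside 6.91% called of all probe sets tested. The 1 was Alas1, the first enzyme in cells other than red cells, with 258, 427 and 173 signal units in MK6 and 1078 and 863 in MKP. Alas1 fell by 1.79 on the log2 scale (SE 0.33, adjusted p = 0.0148), while the later enzymes Alad, Urod, Ppox, Cpox and Fech were not called. The Alas1 call was lost without MK6 replicates 1 and 3, at a log2 difference of -1.15, and without MKP replicate 1 or 2. Each of these fits left 1 array in a compared stage. The median log2 difference of the 10 was 0.07, against 0.08 over all probe sets tested.

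In heme breakdown and heme sensing 2 of 8 probe sets rose and 0 fell in MK6 against MKP. Over all 14516 probe sets tested 6.91% were called, 383 higher and 620 lower. Blvrb, a biliverdin reductase abundant in red cells, had 910, 1191 and 1207 signal units in MK6 and 281 and 156 in MKP, and rose by 2.30 on the log2 scale (SE 0.27, adjusted p = 0.00332). Hmox1, the heme oxygenase that opens the heme ring, had 2683, 1182 and 1289 signal units in MK6 and 431 and 482 in MKP. Hmox1 rose by 1.78 (SE 0.35, adjusted p = 0.0171), and its highest array was MK3 replicate 1 at 3001. That array had the highest summed macrophage markers and the highest summed hepatocyte markers. The call was lost for Hmox1 without MK6 replicates 1 and 3 (log2 difference 1.35), a fit that left 1 array in MK6. Bach1, a heme-binding repressor, gave 0.66 on 1440831_at and did not pass (adjusted p = 0.129). Its probe set 1449311_at gave -0.06 (adjusted p = 0.916).

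Among 25 iron probe sets 2 rose and 1 fell in MK6 against MKP, beside 6.91% called of all probe sets tested. The 1 that fell was Tfrc. Fth1, the ferritin heavy chain that stores iron, had 13703, 6670 and 10169 signal units on 1448771_a_at in MK6 and 3279 and 3924 in MKP. It rose by 1.44 on the log2 scale (SE 0.36, adjusted p = 0.0409), and its other probe set gave 0.83 with an adjusted p of 0.196. The Fth1 call was lost in 10 of 24 alternatives. Probe sets that Ftl1, the ferritin light chain, shares with other genes are outside the 25. With shared probe sets added to the limma fit they gave 2.32 (1422301_at, adjusted p = 0.00462), 1.60 (1418364_a_at, 0.0149) and 0.79 (1422302_s_at, 0.154). They were fitted in no other alternative. Slc40a1, the iron exporter ferroportin, had 457, 558 and 439 signal units on 1417061_at in MK6 and 163 and 198 in MKP. It rose by 1.35 (SE 0.22, adjusted p = 0.0104), and in MK3, with 1225 and 1128 signal units, by 2.61 against MKP (SE 0.24, adjusted p = 0.00249). Its other probe set, 1448566_at, was not called, with 0.47 in MK6 (adjusted p = 0.395) and 1.5 in MK3 (adjusted p = 0.149). Of 11 monocyte and macrophage marker probe sets 10 had positive differences in MK3 against MKP, with a median of 1.11, and 1 was called (Mrc1, 3.06, adjusted p = 0.0125). Their summed level was 15415 to 30807 signal units in MK3 and 10863 to 13646 in MKP. All 11 hepatocyte marker probe sets had positive differences in MK3 against MKP, with a median of 2.27, and 3 were called. The part of either marker list in the Slc40a1 rise was not tested. Steap3, an endosomal iron reductase, had a log2 difference of -1.39 on 1423468_at that did not pass (adjusted p = 0.194). This probe set had 163, 39.8 and 13.0 signal units in MK6. The log2 means of other Steap3 probe sets were 6.05 in MK6 and 6.31 in MKP (1430355_a_at), and 5.76 and 6.43 (1453498_x_at). Without MK6 replicates 1 and 3, 1 array was left in MK6, so no count of iron probe sets is given for that fit.

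**Figure D4:**
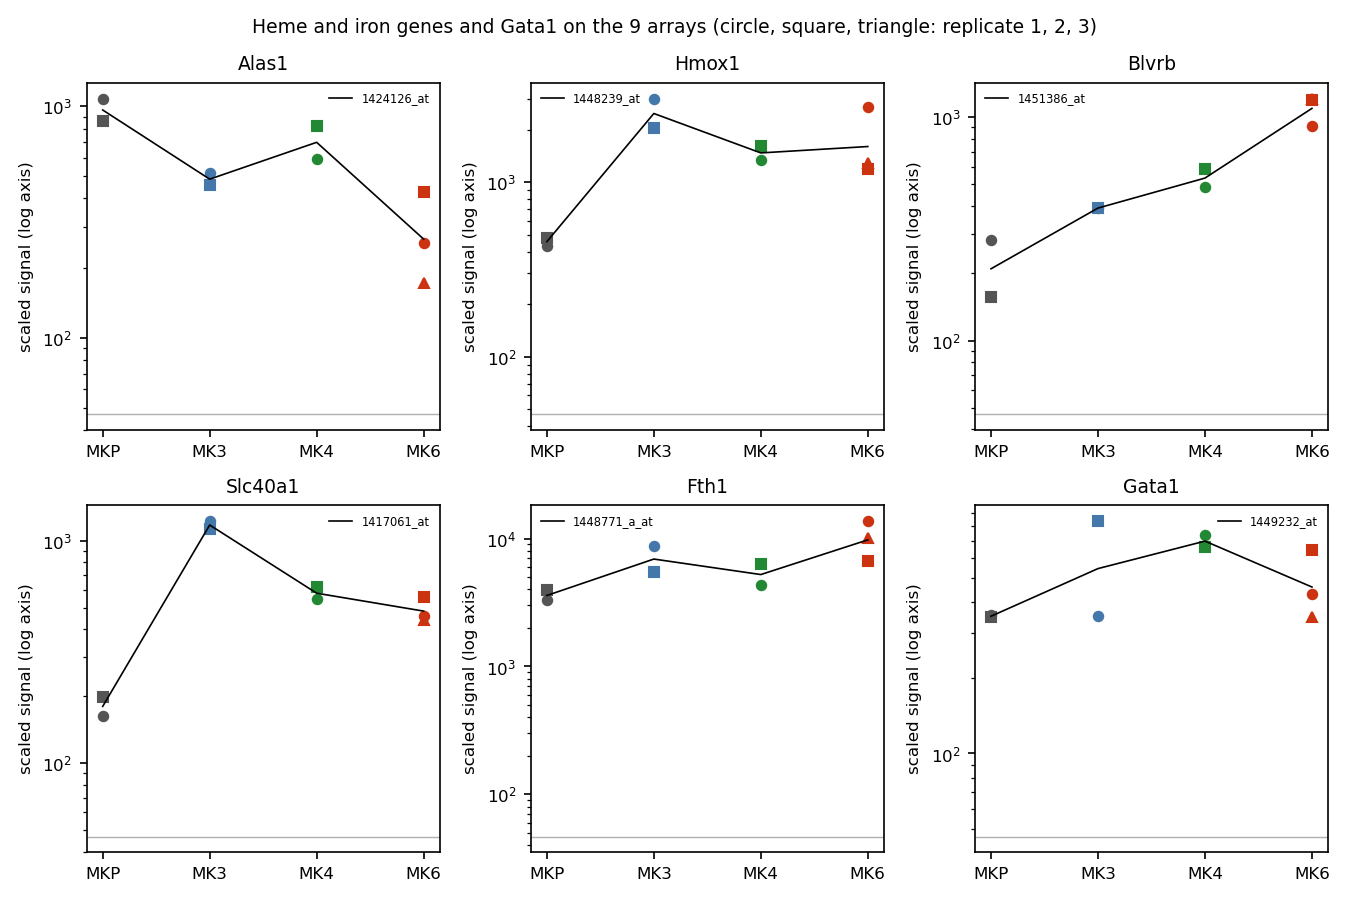
Scaled signal (log axis) of Alas1, Hmox1, Blvrb, Slc40a1, Fth1 and Gata1 on the 9 arrays, by stage, with lines through the stage means and the filter at 46.7 as a grey line. Alas1 is lower in MK6 than in MKP, Blvrb is higher (910 to 1207 against 156 to 281), and Slc40a1 is highest in MK3, at 1128 to 1225.

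Among 18 probe sets of erythroid transcription factors and the erythropoietin receptor, 1 rose and 2 fell in MK6 against MKP, beside 6.91% called of all tested. The 1 was the Foxo3 probe set 1434831_a_at (1.18 on the log2 scale, adjusted p = 0.0158). The other Foxo3 probe set above the filter gave 0.63 (adjusted p = 0.141). The 2 that fell were Ldb1, a bridging partner of Gata1 and Tal1, with -1.35, and the Zfpm1 probe set 1423603_at, with -1.64 (adjusted p = 0.0218). The other Zfpm1 probe set gave 0.41, with an adjusted p of 0.577. The Klf3 probe set 1421604_a_at, for a Kruppel-like factor, gave -1.38 without passing (adjusted p = 0.212). It had 131, 83.8 and 4.11 signal units in MK6, so 1 array was far below the others. The log2 means of other Klf3 probe sets were 7.93 in MK6 and 7.68 in MKP (1429360_at), and 8.44 and 8.36 (1431630_a_at). Klf1, the erythroid Kruppel factor, had 132, 69.8 and 111 signal units in MK6 and 154 and 163 in MKP, with a log2 difference of -0.58 (adjusted p = 0.274). Gata1 had 431, 642 and 349 signal units in MK6 and 355 and 347 in MKP, with a log2 difference of 0.37 (adjusted p = 0.531). Of 20 red cell membrane and enzyme probe sets, 0 were called by limma in MK6 against MKP, beside 6.91% of all probe sets tested. The log2 differences furthest from 0 were -1.34 for Xk (adjusted p = 0.103), -1.05 for the Bpgm probe set 1448119_at (0.165) and 1.03 for Gypc (0.0723). The other Bpgm probe set above the filter gave 0.37 (adjusted p = 0.586). Car1, Rhag and Epb42, which encode a carbonic anhydrase, a membrane channel protein and a membrane skeleton protein of red cells, were below the filter on all 9 arrays. They were the only such genes among the 21 of this list with a probe set of their own. By the brightest probe set of each gene, 9 to 15 of the 21 were above the filter on each array.

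Among 12 probe sets of heme and porphyrin transport and mitochondrial iron, 0 were called by limma in MK6 against MKP, beside 6.91% of all tested. Abcb6, a porphyrin transporter, had a log2 difference of 0.93 (adjusted p = 0.192), Abcb10 one of -0.70 (0.11) and Flvcr1, a heme exporter, one of 0.46 (0.466). Other Abcb10 probe sets gave -0.38 (adjusted p = 0.496) and 0.05 (0.95). Leaving out MK6 replicates 1 and 3 (an alternative chosen after seeing the data), MKP replicate 1 or MKP replicate 2 left 1 array in a compared stage. No counts over the 7 lists are given for these fits. The lists were measured on the same arrays as the 9 genes and add no independent samples.

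**Figure D5:**
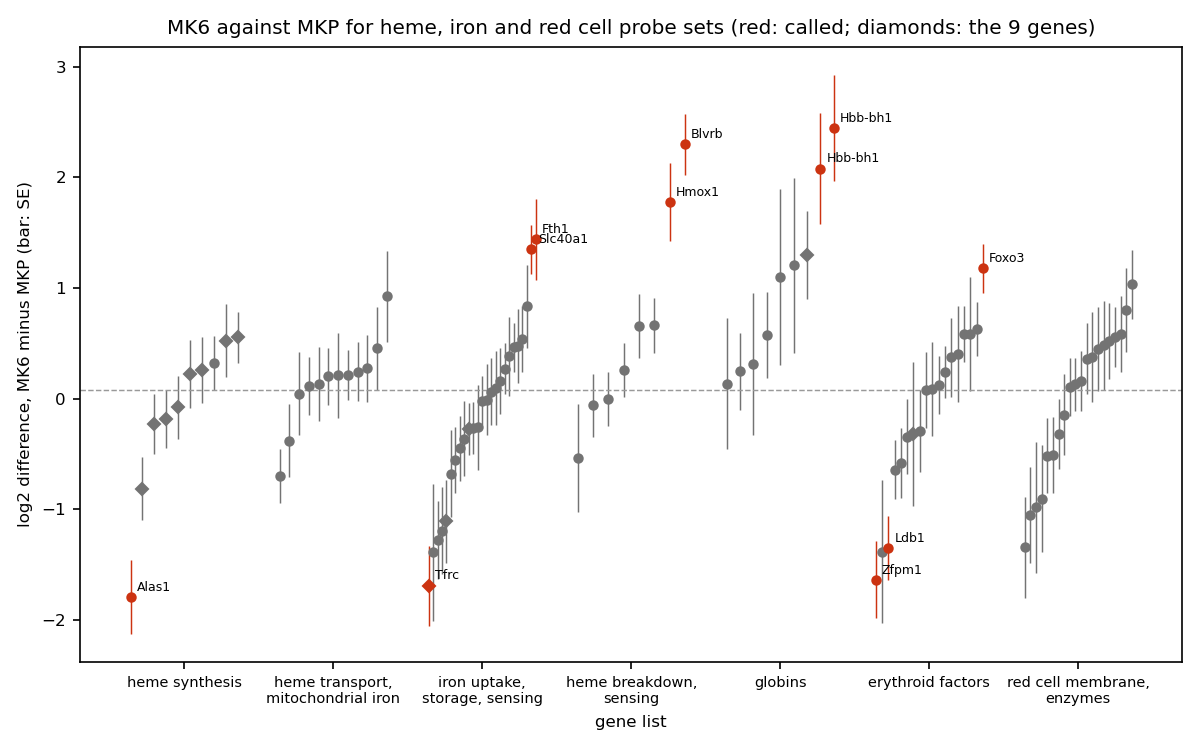
Log2 differences, MK6 minus MKP, of single-gene probe sets in 7 lists, with bars for 1 SE. Red marks called probe sets, diamonds mark the 9 genes, and the dashed line is the median of all probe sets tested, 0.08. The called probe sets are Alas1, Tfrc, Zfpm1 and Ldb1 below 0 and Slc40a1, Fth1, Hmox1, Blvrb, Hbb-bh1 and Foxo3 above it; those of Hbb-bh1 entered the tests through their MK6 arrays, and with beta-actin 3' to 5' ratios in the model 0 of 14516 probe sets were called.

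Genes whose log2 values followed each member most closely over the 9 arrays were found among all kept probe sets, as a description of 9 points that share stage and array. For Hemgn they were Odc1 (r = 0.97), Myef2 (0.95) and Ndn (0.95). For Fech they were Hps4 (0.98), Ctla2b (0.98) and Slc2a3 (0.96), and for the Tfrc probe set 1452661_at they were Ptpn6 (0.95), Ehbp1l1 (0.94) and Ap2s1 (0.94). Hba-a1 ran closest to Mag (0.98), Tmem109 (0.98) and Nus1 (0.97), and Alad to Etfb, Emc7 and Zcchc3 (0.96 each). Urod ran closest to Per3 (0.96), Tti2 (0.93) and Smarca2 (0.92). Cpox 1422493_at ran closest to Atg3 (0.94), Tomm40 (0.94) and Gspt1 (0.93), and Ppox to Bcl2l13 (0.96), Trappc5 (0.94) and Mrpl44 (0.93).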

How the data were processed

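RNA of 9 samples was read on Affymetrix MOE430A arrays from biotin-labelled RNA primed with oligo-dT. The values are deposited probe set intensities on a linear scale, made by the authors with MAS5 per the submitters' processing notes, with version and settings not given in the sources used here. The deposited trimmed means (2% off each end) differed by more than 10%, so arrays were scaled to a common one, and log2(signal + 15.2) was taken, the pseudocount being the 20th percentile. This understates the change of dim genes. Probe sets paired with 1 gene in the platform annotation and above 46.7 on at least 2 arrays were fitted (14516 probe sets, 9397 genes) in limma 3.58.1 (R 4.3.3), with a mean per stage, 5 residual degrees of freedom, an intensity trend and Benjamini-Hochberg adjustment over all. Control and several-gene probe sets were fitted only as an alternative added later. The number of arrays limits the precision. Named are all probe sets of the 9 genes, the called genes of each list, the 3 genes per list with the largest MK6 difference, and the 3 genes most like each member. The members and lists were chosen with earlier results of these data known. The code was tested on simulated data. Alternatives covered pseudocount, filter, scaling, probe set choice, eBayes settings, array weights, a beta-actin covariate and left-out arrays, of which leaving out MK6 replicates 1 and 3 together was added after seeing the data.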

Additional observations from a re-analysis of the deposited data

How the results depend on the processing

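The count of called probe sets among the 9 genes was small, so 1 call moved it. In MK6 against MKP it was 1, beside 6.91% called of all probe sets tested. It was 0 with only the stages compared (4.35% of all called) and with the beta-actin covariate (0%). With the brightest probe set per gene it was 0 (5.69% of all). That fit held 1452661_at for Tfrc and not the called 1422966_a_at. It was 5 with array weights, where 21.4% of all probe sets were called, and 2 with several-gene and control probe sets included, where 7.14% were. Without MK6 replicate 3 it was 0 (2.19% of all). Leaving out an MKP, MK3 or MK4 array, or 2 MK6 arrays together, left 1 array in a stage. No count of the 9 genes is given for these fits. In MK6 against MK4 the count was 0 (0.0276% of all called), 1 with no scaling (1.56%) and 2 with array weights (4.17%). The test over the 4 stages called 1 (2.59% of all called). It called 0 with the brightest probe set per gene (2.79%), a fit that did not hold 1422966_a_at. It called 0 with no intensity trend (1.34%) and 0 with the beta-actin covariate (0.0344%). It called 3 with array weights (13.9%) and 2 with several-gene and control probe sets included (2.84%). MK3 against MKP and MK4 against MK3 stayed at 0 in the fits that left out no array, beside at most 1.56% and 0.0207% of all called. The cause was not tested. The Tfrc probe set 1422966_a_at was called in 18 of 24 alternatives. No difference of the members reversed, and 59 uncalled ones of 1252 compared changed sign. The low arrays of MK6 and the small number of arrays limit all of these values. Without scaling, the median difference of all probe sets in MK6 against MKP was -0.25, against 0.08 as reported. The count over all probe sets in that comparison, 1003 as reported, was 552 without scaling, 632 with only the stages compared, 535 with the brightest probe set per gene, 0 with the beta-actin covariate, 5 and 18 without MKP replicate 1 or 2, 307 without MK6 replicate 3, 1753 without MK6 replicate 2, 88 without MK6 replicates 1 and 3, 2612 without MK6 replicates 2 and 3, and 3109 with array weights.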
